A study of Danio rerio with 16 samples.

Results

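The interaction of ploidy and 17α-ethinyl estradiol (EE2) in zebrafish testis is the difference between the EE2 response of triploid testis and the EE2 response of diploid testis. It was read gene by gene as the log2 change with EE2 in triploids minus the log2 change with EE2 in diploids. A positive value means a more positive response in triploids, and a negative value a more positive response in diploids. It was taken from 15 of the 16 libraries of the study, all of them RNA from male gonads of AB strain zebrafish. They were 3 libraries of triploid EE2 fish (replicates 1, 3 and 4), 4 of triploid control fish, 4 of diploid EE2 fish and 4 of diploid control fish. The remaining library, triploid EE2 replicate 2, is titled an outlier by the submitters and was outside the fit. For the dose and duration of exposure, the age of the fish, the way triploids were made and the number of fish per library, the labels used here give nothing, and p-values measure only the spread between these libraries.

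EE2 is a synthetic estrogen that binds nuclear estrogen receptors, which act as transcription factors. In male fish, estrogens switch on egg yolk genes such as the vitellogenins and, through the pituitary and locally, hold down the androgen-making Leydig cells of the testis. Triploid fish carry an extra chromosome set, which cannot pair evenly in meiosis, and their testes are usually poor in mature sperm. A gene that responds to EE2 by the same factor in both ploidies has an interaction of 0, whatever its level in untreated fish.

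Library totals ran from 7052508 to 17369549 read pairs. Testis markers were present in all 16 libraries: the Sertoli cell gene amh at 83.6 to 1222 CPM (normalised read counts relative to library size), the germ cell helicase gene ddx4 at 835 to 1110 CPM and the meiotic gene sycp3 at 45.0 to 155 CPM. Diploid control replicate 1 stood apart: genes of the 7SL RNA type took 13.3% of its read pairs, against 4.71% to 7.77% elsewhere, and mitochondrially encoded genes 6.86%, against 1.63% to 3.01%. It was left out in turn. Of the 12 genes with the leading interactions and the 43 that DESeq2 called, 0 had an interaction reduced by over 1.5 times without it. Those genes were chosen by p in fits that hold this library, which disfavours genes resting on 1 library, so the 0 was nearly fixed. Other values moved without it. The interaction of the cholesterol carrier gene star was 0.34, in place of 0.94, and the median of 94 cytosolic ribosomal protein genes −0.17, in place of 0.36.

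No gene passed the test for a different EE2 response. By edgeR's quasi-likelihood test, 0 of 23007 genes (0.0%) had an adjusted p under 0.05, and the lowest adjusted p was 0.19. At an unadjusted p under 0.05 there were 1223 genes (5.32%), of which 464 (2.02%) had a positive and 759 (3.3%) a negative interaction. The limma-voom test also called 0 genes, with 1201 (5.22%) at an unadjusted p under 0.05. DESeq2 called 43 of the 22899 genes to which it gave an adjusted p (0.188%), 11 positive (0.048%) and 32 negative (0.14%), with 1261 genes (5.48%) at an unadjusted p under 0.05. The shares at an unadjusted p are close to what that threshold gives where no gene has an interaction. The precision behind these counts was moderate: the median standard error of the interaction was 0.32 on the log2 scale, and the 95% interval lay within ±1 log2 unit for 12135 genes (52.7%). For the rest the interval reached a 2-fold difference in at least one direction.

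The 2 sides of the interaction had unequal counts of called genes. The triploid side has 3 EE2 libraries and a median standard error of 0.23, against 4 libraries and 0.22 in diploids. A difference between such counts is not a test of a different response. In triploids, EE2 changed 24 genes (0.104%), 14 higher (0.0609%) and 10 lower (0.0435%). In diploids it changed 543 genes (2.36%), 446 higher (1.94%) and 97 lower (0.422%). The 2 sides share no library. Of the 446 genes that rose in diploids, 394 (88.3%) also had a positive change in triploids, with a median of 0.38 log2 units in triploids and 1.09 in diploids. Of the 97 genes that fell in diploids, 77 (79.4%) had a negative change in triploids, with medians of −0.25 in triploids and −1.23 in diploids. The diploid medians are raised by the choice of genes that passed there. By absolute size, the change was smaller in triploids for 440 of the 446 genes (98.7%) and for 90 of the 97 (92.8%). A smaller change in triploids is therefore not particular to the single genes named below that rose or fell in diploids. In the other direction, the 14 genes that rose in triploids all had a positive change in diploids, with medians of 2.19 in triploids and 2.34 in diploids, and the 10 that fell had medians of −1.84 and −1.92, with the triploid medians raised in the same way. The count in triploids was the less stable, at 2 without triploid EE2 replicate 1 and 35 without diploid control replicate 1, and the count in diploids ran from 254 without diploid EE2 replicate 3 to 656 without diploid EE2 replicate 4. With the omitted library in the fit the counts were 38 in triploids and 257 in diploids. Over all 23007 genes the changes with EE2 in triploids and in diploids had a Pearson correlation of 0.34, a description across genes, which are not independent replicates.

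**Figure D1:**
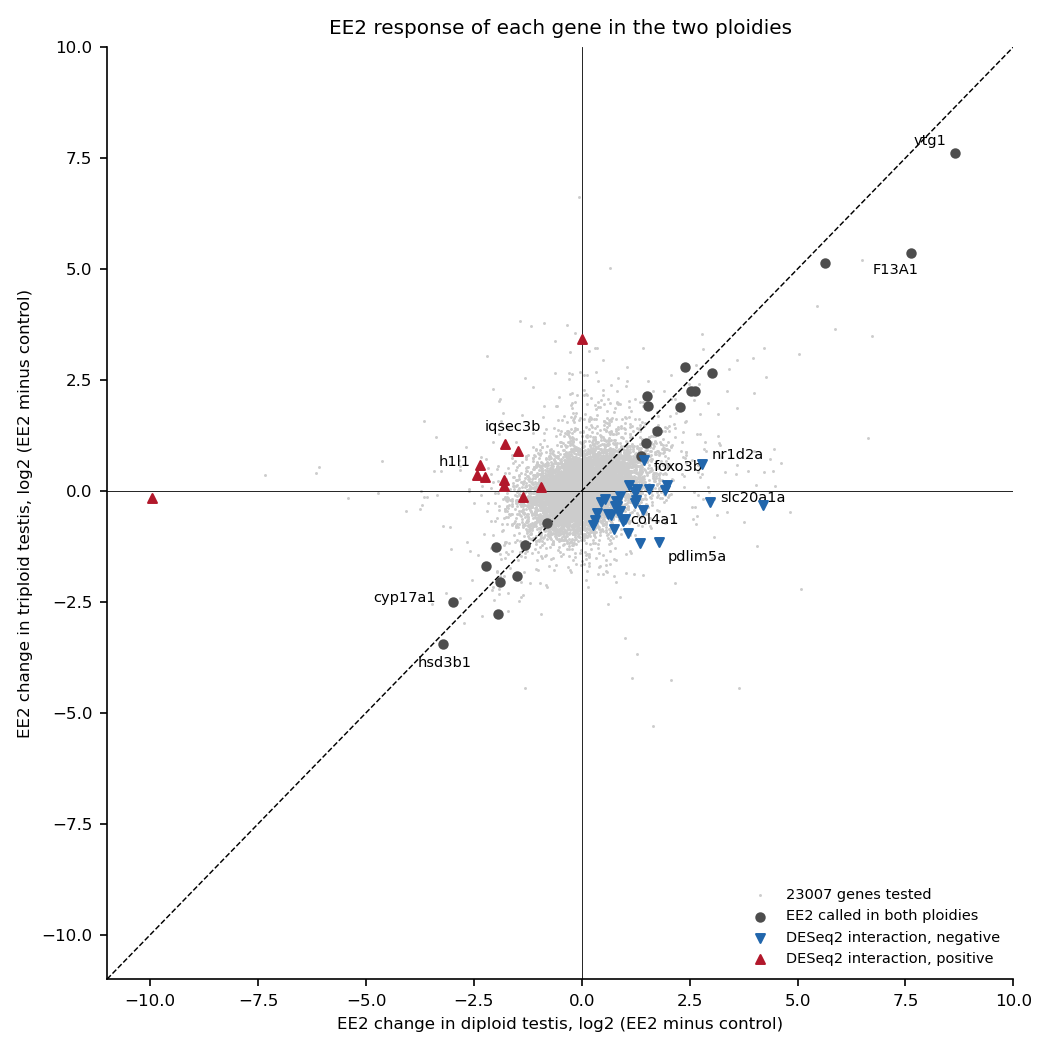
Change with EE2 in triploid testis (y axis) against diploid testis (x axis), each as log2 (EE2 minus control), for 23007 genes tested (grey). Black points are the 22 genes called by edgeR in both ploidies, a choice that favours genes with a sizeable change in each. The dashed line marks equal response, and F13A1_ENSDARG00000045453 lies off it, with an interaction of −2.25. Triangles are the 43 genes that DESeq2 called in the interaction, 32 with a more positive response in diploids (blue) and 11 with a more positive response in triploids (red). The red point at the far left is si:ch211-160d14.15, which had 0 counts in all 4 diploid EE2 libraries, so that its place on the x axis is set by the fit and is not a measured size.

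The 43 genes from DESeq2, chosen here after their values were seen, describe what the strongest candidates look like. Of the 32 negative ones, 25 had changes of opposite sign in the 2 ploidies and 7 changed the same way with a larger change in diploids. Their median change was −0.33 in triploids and 1.04 in diploids. By edgeR, EE2 was called in diploids for 23 of the 32 and in triploids for 0, and ploidy was called among EE2 fish for 31 and among controls for 1. Over all genes ploidy was called among EE2 fish for 5.82% (1.05% higher and 4.77% lower in triploids) and among controls for 2.74% (0.574% higher and 2.16% lower). The interaction equals the ploidy difference under EE2 minus that in controls, from the same libraries. Genes chosen for it therefore tend to differ by ploidy under EE2 or in controls, and by EE2 in diploids or in triploids. These counts come from the values that chose the genes and are no separate result. The 11 positive genes had a median change of 0.32 in triploids and −1.80 in diploids, with EE2 called in diploids for 9 and in triploids for 0. Ploidy was called among EE2 fish for 5 of them and among controls for 5. All 43 kept the sign of the interaction in all 24 alternative settings that were run, and their edgeR p ran from 1.7e-05 to 0.0042. The DESeq2 fit that chose them is among those settings, and the others share most libraries with it. A kept sign and a low p were therefore nearly fixed by the choice. The size could still move: for si:ch1073-309n14.1 it was −1.91, and −0.21 with triploid EE2 replicate 2 in the fit.

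The 6 genes with the lowest p in each direction, among genes with a name and a mean level of at least 1 on the log2 CPM scale were taken as leading genes. On the negative side they were pdlim5a, col4a1, glulb, wbp1lb, foxo3b and col4a2, and on the positive side h1l1, mctp2b, myhz1.3, iqsec3b, nlgn4xb and pimr177. The most negative of the 12 was pdlim5a, which encodes a PDZ and LIM domain protein of the actin cytoskeleton (chromosome 5, 7722017 to 7844265, GRCz11). Its level was 5.04, 8.96 and 6.5 CPM in triploid EE2 fish, against 16, 14.2, 6.53 and 23.7 CPM in triploid controls. In diploids it was 15.3, 16.3, 22.2 and 12.6 CPM with EE2, against 4.83, 4.24, 6.0 and 4.27 CPM in controls. The diploid groups did not overlap, and the triploid groups overlapped through 1 control library. The change was −1.15 ± 0.34 log2 units (SE) in triploids and 1.79 ± 0.32 in diploids, an interaction of −2.95 (95% interval −3.95 to −1.94, adjusted p = 0.19). Without triploid control replicate 3, the low control, the interaction was −3.19 and passed the test at an adjusted p of 0.011. Leaving out the library that lies against the difference raises it by construction, so that pass is no separate result. Without triploid control replicate 4, the high control, the interaction was −2.64.

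Glutamine synthetase, encoded by glulb (chromosome 6, 23809163 to 23813893), had opposite changes. It stood at 21.8, 29.0 and 31.2 CPM in triploid EE2 fish, against 59.7, 44.3, 37.9 and 57.1 CPM in triploid controls. In diploids it stood at 35.4, 70.0, 57.5 and 50.9 CPM with EE2, against 32.6, 29.0, 32.3 and 34.2 CPM in controls. Neither pair of groups overlapped. The interaction was −1.61 (95% interval −2.22 to −1.0, adjusted p = 0.22), with changes of −0.87 ± 0.21 in triploids and 0.74 ± 0.19 in diploids, of which neither was called on its own (adjusted p = 0.28 in triploids and 0.058 in diploids). The gene wbp1lb had the same shape, 18.3 to 28.9 CPM in triploid EE2 and 31.9 to 44.6 CPM in triploid control libraries, against 46.2 to 67.2 CPM in diploid EE2 and 23.6 to 40.3 CPM in diploid control libraries.

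A different shape was seen in foxo3b (chromosome 20, 32286765 to 32332736), which encodes a forkhead transcription factor that insulin signalling keeps out of the nucleus. Triploid EE2 libraries held 21.3, 32.9 and 34.5 CPM, overlapping the triploid controls at 22.3, 33.1, 29.9 and 30.0 CPM. Diploid EE2 libraries held 68.0, 81.1, 90.6 and 77.5 CPM, against 23.5, 23.3, 23.2 and 37.1 CPM in diploid controls. The gene rose in diploids by 1.56 ± 0.19 log2 units (adjusted p = 0.00076), its change in triploids was 0.03 ± 0.20, and the interaction was −1.53 (95% interval −2.12 to −0.93, adjusted p = 0.22). Without diploid control replicate 4, the control at 37.1 CPM, foxo3b, wbp1lb, col4a1, col4a2 and the clone-named si:dkey-80c24.1 passed the test, with adjusted p from 0.044 to 0.047. That library held the highest diploid control level of each of these genes, so its omission raises their differences by construction. These passes are no separate result. Without triploid EE2 replicate 1 the interaction was −1.34 for foxo3b, and −1.50 for wbp1lb in place of −1.63.

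**Figure D2:**
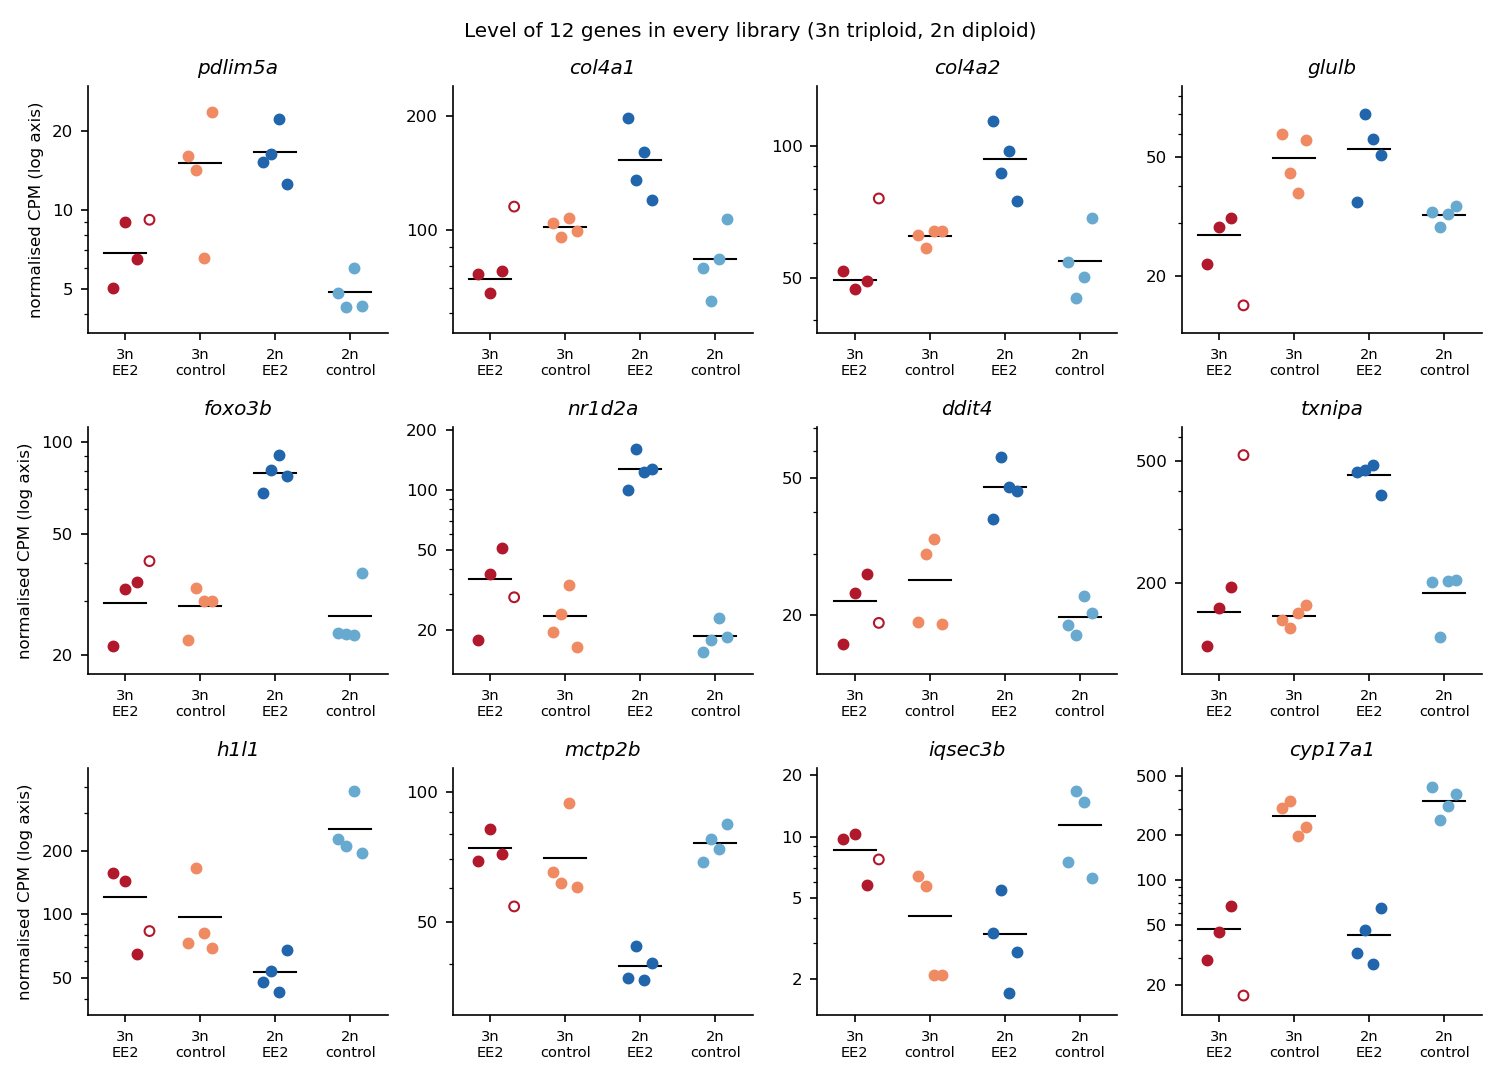
Normalised CPM on log axes of 12 genes in every library, with the panels divided into triploid EE2, triploid control, diploid EE2 and diploid control libraries. Filled points are libraries of the fit, black lines their means, and the open red circle triploid EE2 replicate 2, which was outside the fit. For foxo3b, nr1d2a, ddit4 and txnipa the 4 diploid EE2 libraries lie above all others of the fit. For cyp17a1 both EE2 groups lie below both control groups.

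Genes of a chosen extracellular matrix list had mostly negative interactions. The 2 chains of type IV collagen, the network collagen of basement membranes, are encoded by the neighbouring genes col4a1 and col4a2 on chromosome 9 (8634229 to 8670158 and 8761099 to 8882901). For col4a1, triploid EE2 libraries held 76.1, 67.8 and 77.6 CPM, against 104, 95.9, 108 and 99.5 CPM in triploid controls. Diploid EE2 libraries held 198, 135, 161 and 120 CPM, against 79.1, 64.8, 83.6 and 107 CPM in diploid controls. Neither pair overlapped, and the pairs were ordered in opposite ways. The interaction was −1.34 for col4a1 (95% interval −1.84 to −0.84) and −1.11 for col4a2 (−1.54 to −0.67), both at an adjusted p of 0.22. Both genes rose in diploids, by 0.87 ± 0.16 and 0.77 ± 0.14 log2 units.

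Of the 49 extracellular matrix genes tested, 42 had a negative interaction, against 11182 of all 23007 genes. Of the 42, 18 had an unadjusted p under 0.05 (36.7% of the 49, against 3.3% of all genes tested), with 0 on the positive side. Shares of the same size were seen in 2 smaller lists, at 38.5% (5 of 13) of erythrocyte genes and 35.0% (7 of 20) of smooth muscle genes. The list's median change was −0.12 in triploids and 0.52 in diploids, with a median interaction of −0.72, against 0.01 over all genes. In diploids 11 members rose (background 1.94%), a count that was 7 without diploid EE2 replicate 3 and 2 with triploid EE2 replicate 2 in the fit. In triploids 0 passed the test (background 0.104%). Beside col4a1 and col4a2, the members with a p under 0.05 were genes of fibrillar collagens (col1a1a, col1a1b, col1a2, col5a1, col5a2a), col6a1 and col6a2 of the beaded-filament collagen VI, col12a1a, the laminin chains lama2, lama4 and lamc1, the basement membrane proteoglycan gene hspg2, the small proteoglycan gene dcn, the crosslinking enzyme gene loxa, the fibronectin gene fn1a and the membrane protease gene mmp14a. The summed level of the 49 genes was 2668 to 3344 CPM in triploid EE2 and 2774 to 3612 CPM in triploid controls, which overlapped. It was 5035 to 6956 CPM in diploid EE2 and 2838 to 3831 CPM in diploid controls, which did not. In whole testis, fewer cells of a type and less RNA per cell cannot be told apart. Leaving out any 1 library gave 15 to 23 members on the negative side. The collagen family, taken by name pattern, was less one-sided. Of its 55 tested genes, 36 had a negative and 19 a positive interaction. At an unadjusted p under 0.05, 12 were negative (21.8%, background 3.3%) and 1 positive (1.82%, background 2.02%). Its median interaction was −0.26, with median changes of −0.07 in triploids and 0.16 in diploids.

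The matrix result depended on the omission of the library titled outlier. In the normalisation over all 16 libraries, triploid EE2 replicate 2 held 7734 CPM of the 49 genes, above all the others. The next highest library was a diploid EE2 one at 6937 CPM, and the other triploid EE2 libraries held 2675 to 3354 CPM. With it in the fit, 4 members had a negative and 2 a positive interaction at a p under 0.05, and the median interaction was −0.27. For fn1a the interaction was −0.78 without that library and 1.39 with it. Fn1a had 36.7, 32.9 and 23.9 CPM in the triploid EE2 libraries of the fit and 461 CPM in the omitted one, and col5a1 had 99.8, 89.3 and 72.7 CPM and 308 CPM. For col4a1 it held 115 CPM, between the triploid and diploid EE2 libraries.

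**Figure D3:**
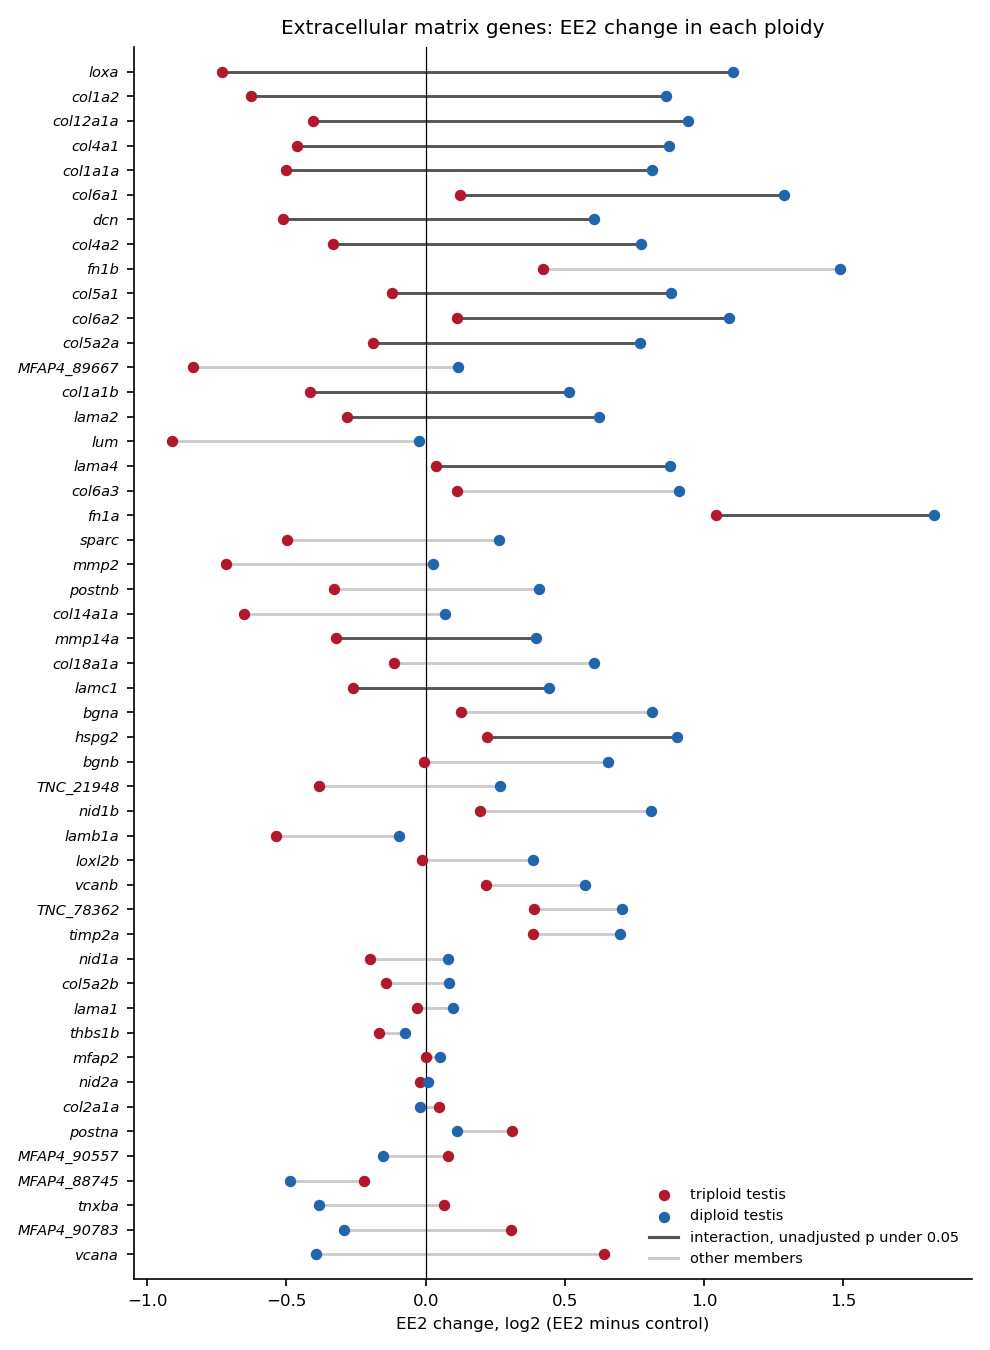
Change with EE2, as log2 (EE2 minus control), of the 49 extracellular matrix genes tested, in triploid testis (red) and diploid testis (blue), sorted by the interaction. Dark lines join the 18 genes with an unadjusted interaction p under 0.05, and in each of these the blue point lies to the right of the red one. The median change was −0.12 in triploids and 0.52 in diploids.

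DESeq2 called further matrix-related genes, among them members of the list. For dcn, which encodes decorin, triploid EE2 libraries held 39.7, 35.5 and 28.4 CPM, below the triploid controls at 41.7 to 65.9 CPM, and diploid EE2 libraries held 72.2 to 101 CPM, above the diploid controls at 48.1 to 66.6 CPM. The laminin gamma chain gene lamc1 had 126 to 153 CPM in triploid EE2 and 154 to 194 CPM in triploid controls, against 231 to 246 CPM in diploid EE2 and 148 to 195 CPM in diploid controls. The elastin gene elnb had an interaction of −1.65 (95% interval −2.43 to −0.87), the elastin crosslinking enzyme gene loxl1 −1.29 (−1.90 to −0.69), the fibroblast protease gene fap −0.96 (−1.42 to −0.50), fstl1b −1.15 (−1.74 to −0.56) and the chondroitin sulfate synthesis gene csgalnact1a −1.22 (−1.81 to −0.62). Of these 5, elnb, loxl1, fap and fstl1b rose in diploids, and in triploids none passed the test. The triploid groups of elnb, fap and fstl1b overlapped, and the change of fap in triploids was positive, at 0.14. Several of these interactions were smaller with triploid EE2 replicate 2 in the fit: −0.25 for dcn, −0.27 for col5a1, −0.54 for fstl1b, −0.72 for loxl1 and −1.04 for elnb.

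Several contractile and vessel genes also rose in diploids, with smaller median changes in triploids. Of 20 smooth muscle and peritubular cell genes, 17 had a negative interaction (11182 of all 23007 genes). At an unadjusted p under 0.05 there were 7, all negative (background 3.3%). The median change was 0.62 in triploids and 0.90 in diploids, 9 members rose in diploids (background 1.94%), and in triploids 1 rose (background 0.0609%), the actin-binding caldesmon gene cald1b. The tropomyosin gene tpm2 stood at 131, 150 and 126 CPM in triploid EE2 and 88.9, 70.7, 83 and 90.1 CPM in triploid controls. In diploids it stood at 255, 269, 312 and 250 CPM with EE2 and 115, 89.5, 89.6 and 107 CPM in controls. Both pairs were apart, with changes of 0.71 ± 0.13 in triploids (adjusted p = 0.052) and 1.44 ± 0.12 in diploids (adjusted p = 3.5e-05), an interaction of −0.73 (95% interval −1.11 to −0.36, adjusted p = 0.41). The smooth muscle actin gene acta2 had changes of 1.1 in triploids and 1.6 in diploids, and the interval of its interaction, −1.15 to 0.16, included 0. The count of 7 rested in part on single libraries: it was 4 without diploid control replicate 2, 4 without diploid EE2 replicate 3 and 10 without diploid control replicate 1, a fit in which 6 members were called higher in triploids.

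Among 26 endothelial genes, 4 had a negative and 1 a positive interaction at a p under 0.05 (background 3.3% and 2.02%). Leaving out 1 library gave 2 to 8 negative ones. With triploid EE2 replicate 2 in the fit there was 1. EE2 raised 5 of the 26 in diploids (background 1.94%) and 1 in triploids (background 0.0609%). The vessel receptor genes tie1 and kdr and the junction cadherin gene cdh5 rose in diploids, by 0.97, 0.63 and 0.83 log2 units, and had changes of −0.11, 0.11 and 0.21 in triploids. The median over the list was 0.19 in triploids and 0.53 in diploids. Among 54 paracrine growth factor and receptor genes, 6 had a negative and 1 a positive interaction at a p under 0.05 (background 3.3% and 2.02%). The negative count was 10 without diploid control replicate 1 and 3 with triploid EE2 replicate 2 in the fit. In diploids EE2 raised 3 of the 54 (background 1.94%) and lowered 1 (background 0.422%), and in triploids it raised 1 (background 0.0609%). The platelet-derived growth factor receptor genes pdgfra and pdgfrb, which mark stromal cells, rose in diploids by 0.89 and 1.02 and had changes of −0.05 and 0.03 in triploids. Of all genes that rose in diploids, 98.7% changed less in triploids, so a smaller change there is not particular to vessel or stromal genes. The gene gsdf, a Sertoli cell growth factor of the transforming growth factor beta family, had 147, 192 and 161 CPM in triploid EE2 libraries, below the triploid controls at 231, 260, 214 and 212 CPM. It had 483, 556, 469 and 428 CPM in diploid EE2 libraries, overlapping the diploid controls at 280, 332, 411 and 447 CPM. Its interaction was −0.86 (95% interval −1.32 to −0.40, unadjusted p = 0.0013, adjusted p = 0.55). The list of 18 Sertoli cell genes lay on neither side, with 1 negative and 1 positive interaction at an unadjusted p under 0.05 and a median interaction of −0.07.

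Several single genes of nutrient and energy handling were among those that DESeq2 called. They were picked after their values were seen and stand for no list. The gene txnipa, whose mammalian counterpart limits glucose uptake, had 124, 166 and 193 CPM in triploid EE2 libraries and 151, 143, 159 and 170 CPM in triploid controls. It had 460, 467, 484 and 388 CPM in diploid EE2 libraries and 201, 133, 203 and 204 CPM in diploid controls. It rose in diploids by 1.28 ± 0.16 log2 units (adjusted p = 0.00076), its change in triploids was 0.05 ± 0.17, and the interaction was −1.23 (95% interval −1.72 to −0.74). The omitted triploid EE2 replicate 2 held 523 CPM, at the diploid EE2 level, and with it in the fit the interaction was −0.56. The gene ddit4, known in mammals as an inhibitor of the growth kinase complex mTORC1, had 16.4, 23.1 and 26.3 CPM in triploid EE2 and 18.8 to 33.3 CPM in triploid control libraries, against 37.9 to 57.7 CPM in diploid EE2 and 17.4 to 22.7 CPM in diploid control libraries. The mitochondrial carrier gene ucp2 rose in diploids by 1.42 and had a change of −0.43 in triploids, with an interaction of −1.85 (95% interval −2.59 to −1.10). The amino acid transporter gene slc1a5 had changes of −0.66 in triploids and 0.31 in diploids, of which neither passed the test. The phosphate transporter gene slc20a1a, at 0.214 to 3.93 CPM in the fit, rose in diploids by 2.97 ± 0.48 and had a change of −0.26 ± 0.52 in triploids.

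Single stress-responsive and clock genes also had a negative interaction. Of 29 acute stress genes, 4 had a negative and 0 a positive interaction at a p under 0.05 (background 3.3% and 2.02%). The 4 were ddit4, the AP-1 transcription factor gene jun, the cytokine signalling inhibitor gene socs3a and the phosphatase gene dusp1. Jun had 14.8 to 21.8 CPM in triploid EE2 and 19.5 to 29.8 CPM in triploid controls, against 31.6 to 57.1 CPM in diploid EE2 and 13.3 to 22.4 CPM in diploid controls. The gene nr1d2a encodes a Rev-erb nuclear receptor, a repressor in the circadian clock. It had 17.8, 38.1 and 51.2 CPM in triploid EE2 libraries and 19.4, 23.9, 33.4 and 16.3 CPM in triploid controls. It had 99.6, 160, 124 and 128 CPM in diploid EE2 libraries and 15.5, 17.7, 22.9 and 18.4 CPM in diploid controls. It rose in diploids by 2.78 ± 0.30 (adjusted p = 0.00039), its change in triploids was 0.61 ± 0.30, and the interaction was −2.16 (95% interval −3.06 to −1.26, adjusted p = 0.25).

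The clock list as a whole did not lie on one side. Of 40 clock genes, EE2 changed 11 in diploids, 7 higher (background 1.94%) and 4 lower (background 0.422%), and 0 in triploids (background 0.104%). Leaving out 1 library gave 6 to 8 higher and 1 to 4 lower in diploids. In the interaction, 7 had a negative and 2 a positive interaction at a p under 0.05 (background 3.3% and 2.02%). The members clocka, nfil3-5, nr1d4b, cry3a and cry3b rose in diploids by 0.60 to 1.25 and had positive, smaller changes of 0.19 to 0.61 in triploids. The members per1b and ciarta fell in diploids by 0.45 and 0.56, and had changes of −0.07 and −0.24 in triploids. A smaller change in triploids was also seen in 98.7% of all genes that rose in diploids and 92.8% of those that fell. The other Rev-erb gene of the chosen set, nr1d1, fell in diploids, with changes of −0.97 in triploids and −1.20 in diploids, and an interaction of 0.22 (95% interval −0.63 to 1.07). The labels give no time of day of sampling.

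On the positive side, 4 of the 6 leading genes fell in diploids (background 0.422%) and none of the 6 passed the test in triploids (background 0.104%). The 6 were chosen by an interaction p that holds the diploid and the triploid change, so these counts are no separate result. The gene mctp2b, which encodes a membrane protein with C2 domains, had 69.0, 81.8 and 71.8 CPM in triploid EE2 and 65.1, 61.4, 94.2 and 60.2 CPM in triploid controls. It had 37.1, 43.9, 36.6 and 40.2 CPM in diploid EE2 and 68.7, 78.0, 73.8 and 84.2 CPM in diploid controls. It fell in diploids by 0.95 ± 0.14 log2 units (adjusted p = 0.0019), its change in triploids was 0.08 ± 0.15, and the interaction was 1.03 (95% interval 0.60 to 1.46, adjusted p = 0.24). Without triploid control replicate 3, the high control at 94.2 CPM, it was 1.2 and passed the test at an adjusted p of 0.018. That library too lies against the difference, so the gain is built in. Without triploid EE2 replicate 3 the interaction was 0.95. The gene iqsec3b, a guanine nucleotide exchange factor for ARF proteins, had 9.74, 10.2 and 5.79 CPM in triploid EE2 and 6.42, 5.72, 2.11 and 2.11 CPM in triploid controls. It had 3.39, 5.46, 1.73 and 2.71 CPM in diploid EE2 and 7.49, 16.8, 14.8 and 6.27 CPM in diploid controls, an interaction of 2.83 (95% interval 1.43 to 4.23). The synaptic adhesion gene nlgn4xb and the muscle myosin gene myhz1.3 fell in diploids by 1.17 and 1.14, with changes of 0.43 and 0.27 in triploids. Both were near the lower end of what was tested, at 1.35 to 5.58 CPM and 2.00 to 6.33 CPM over the libraries of the fit. Among 19 skeletal muscle genes, 4 had a negative and 2 a positive interaction at a p under 0.05 (background 3.3% and 2.02%). Leaving out 1 library gave 1 to 5 negative ones. The median changes were −0.72 in triploids and 0.11 in diploids, and the part of muscle RNA in the value of myhz1.3 was not tested.

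Among the 11 positive genes from DESeq2, 5 lay within 538 kb of chromosome 7 (5910467 to 6448182), at the linker histone gene h1l1 and 4 genes with clone names. The gene h1l1 had 156, 143 and 64.7 CPM in triploid EE2 and 72.8, 166, 81.4 and 69.4 CPM in triploid controls, which overlapped. It had 48.1, 54.2, 42.9 and 67.7 CPM in diploid EE2 and 228, 209, 383 and 195 CPM in diploid controls, which did not. It fell in diploids by 2.25 ± 0.34 (adjusted p = 0.0029), its change in triploids was 0.32 ± 0.35, and the interaction was 2.57 (95% interval 1.54 to 3.60, adjusted p = 0.22). The 4 clone-named genes of the stretch that DESeq2 called were si:dkey-23a13.8, si:dkey-23a13.17, si:ch73-368j24.12 and si:ch1073-159d7.10, with interactions of 2.79, 1.22, 1.91 and 2.94. The first stood at 33.0, 38.3 and 20.8 CPM in triploid EE2, 18.7 to 40.2 CPM in triploid control, 11 to 15 CPM in diploid EE2 and 49.8 to 101 CPM in diploid control libraries.

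The stretch held 45 tested genes, among them the histone genes hist1h2a7, hist2h3ca1, H3C15, h2ax2 and histh1l2. Replication-dependent histone mRNAs lack a poly-A tail, and these libraries were made without poly-A selection. In diploids 8 of the 45 fell (background 0.422%) and 0 rose, and in triploids 0 passed the test. The 8 include the 5 called genes by which the stretch was chosen, so the count is in part fixed by that choice. The others were si:dkey-23a13.20, si:ch73-368j24.14 and si:ch1073-159d7.11. The 40 genes that DESeq2 did not call had a median change of −0.23 in triploids and −1.13 in diploids. The direction was not particular to the stretch. In 25 histone-named genes outside it the median change was −0.14 in triploids and −0.57 in diploids. Of these 25, 21 had a positive interaction and 1 had a p under 0.05. How far they depend on diploid control replicate 1 was not tested. The stretch and its bounds were chosen after the values were seen, and histone genes are near-identical copies between which reads may be split, so single members are uncertain. For the stretch as a whole, much of the difference lay in 1 library. The summed level was 5286 to 5564 CPM in triploid EE2 and 5791 to 6641 CPM in triploid controls. It was 3742 to 5128 CPM in diploid EE2, and 18999 CPM in diploid control replicate 1, against 5360 to 6969 CPM in the other 3 diploid controls. Without diploid control replicate 1 the median interaction of the 45 genes was 0.14, in place of 0.90. Of the 5 called genes, h1l1 had 2.62, si:dkey-23a13.8 2.57, si:ch1073-159d7.10 2.64, si:ch73-368j24.12 1.85 and si:dkey-23a13.17 0.98 without that library. The last had 1.22 with it. These genes were chosen by p in a fit that holds the library, which disfavours genes resting on it, so their lesser change was nearly fixed.

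Another kind of positive value came from genes that were nearly silent in triploids. The Pim-related kinase gene pimr177 had 1.17, 3.74 and 0.609 CPM in triploid EE2 and 0.176, 0.173, 0.211 and 0.183 CPM in triploid controls, against 18.6, 30.7, 36.4 and 27.7 CPM in diploid EE2 and 32.0, 20.3, 15.7 and 21.2 CPM in diploid controls. Its change was 3.22 ± 0.65 in triploids (adjusted p = 0.1) and 0.36 ± 0.33 in diploids, an interaction of 2.86 (95% interval 1.27 to 4.45). The testis-specific kinase gene tssk6 and the clone-named si:dkeyp-87a6.2 had the same shape, with interactions of 2.47 and 3.42. Without triploid EE2 replicate 3, the library with the highest triploid values of all 3 genes, the interactions were 1.89 for pimr177, 1.52 for tssk6 and 2.63 for si:dkeyp-87a6.2. Of the 124 Pim-related kinase genes tested, 7 had a positive and 3 a negative interaction at a p under 0.05 (background 2.02% and 3.3%). The positive count was 1 without triploid EE2 replicate 3 and 14 without triploid EE2 replicate 1. The family's median log2 difference between triploid and diploid controls was −3.09, and no pattern of the family is read from triploid levels this low. One more clone-named gene that DESeq2 called, si:ch211-160d14.15, had 2.97, 25.7 and 22.1 CPM in triploid EE2, 5.98 to 25.6 CPM in triploid control, 0 in all 4 diploid EE2 and 0, 20.0, 6.33 and 16.3 CPM in diploid control libraries, so that no fold change is given.

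Some genes of androgen synthesis, which estrogen is known to lower in the testis, fell in both ploidies. Cyp17a1, which encodes a key enzyme of androgen synthesis, stood at 29.2, 45.0 and 67.6 CPM in triploid EE2 and 305, 341, 196 and 227 CPM in triploid controls. In diploids it stood at 32.8, 46.4, 27.5 and 65.4 CPM with EE2 and 418, 255, 313 and 378 CPM in controls. It fell by 2.5 ± 0.34 in triploids and 2.99 ± 0.31 in diploids, an interaction of 0.49 whose 95% interval, −0.44 to 1.41, leaves room for a difference of more than 2-fold in one direction. The steroid dehydrogenase gene hsd3b1 fell by 3.44 ± 0.49 in triploids and 3.22 ± 0.43 in diploids (interaction −0.22, 95% interval −1.55 to 1.1). One of the cyp11a1 genes, CYP11A1_ENSDARG00000092696, which shares its symbol and possibly reads with a near copy, fell by 1.70 in triploids and 2.21 in diploids. Of 23 Leydig cell and steroidogenic genes, 3 fell in triploids (background 0.0435%) and 9 in diploids (background 0.422%). The triploid count was 0 without triploid control replicate 1, triploid EE2 replicate 1 or triploid EE2 replicate 3, and 1 without triploid control replicate 4, and the diploid count ran from 6 to 11 over the libraries left out. The list medians were −0.60 in triploids and −0.68 in diploids, and 1 member, the ferredoxin gene fdx1b, had an interaction at a p under 0.05 (1.2, unadjusted p = 0.026). The cholesterol carrier gene star had changes of −1.45 in triploids and −2.40 in diploids, and its interaction of 0.94 was 0.34 without diploid control replicate 1, a library with 731 CPM where the other diploid controls had 200 to 308 CPM.

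The yolk gene vtg1 and a coagulation factor gene, both raised strongly, had wide intervals. Vtg1, which encodes an egg yolk precursor, had 17.5, 62.8 and 280 CPM in triploid EE2 and 0.440 to 0.948 CPM in triploid controls. It had 137, 90.1, 1222 and 95.8 CPM in diploid EE2 and 0.570 to 1.5 CPM in diploid controls. It rose in both ploidies, by 7.61 ± 1.3 log2 units in triploids (adjusted p = 0.049) and 8.65 ± 1.28 in diploids (adjusted p = 0.0031). The interval of its interaction ran from −5.21 to 3.12, so neither equal nor unequal induction can be read from these libraries, and the interaction was 0.80 in place of −1.05 without diploid EE2 replicate 3. Of 21 estrogen-responsive genes, 18 had a negative interaction (11182 of all 23007 genes), 9 rose in diploids (background 1.94%) and 1 in triploids (background 0.0609%). The diploid count was 3 without diploid control replicate 1, 2 or 3, 5 without diploid EE2 replicate 3, and 6 without triploid control replicate 3 or 4 or diploid control replicate 4. The median change was 0.35 in triploids and 0.91 in diploids. Without diploid EE2 replicate 3, the library with 1222 CPM of vtg1, the list's median interaction was −0.21, in place of −0.85. One of the coagulation factor XIII A chain genes, F13A1_ENSDARG00000045453, which also shares its symbol with a near copy, had 44.8, 13.8 and 36.7 CPM in triploid EE2 and 0.550 to 1.04 CPM in triploid controls, against 82.1 to 187 CPM in diploid EE2 and 0.0785 to 1.5 CPM in diploid controls. It rose in both, by 5.37 ± 0.53 in triploids and 7.62 ± 0.56 in diploids (interaction −2.25, 95% interval −4.10 to −0.41, unadjusted p = 0.02, adjusted p = 0.9).

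Among hormone receptors and germ cell genes, most intervals included 0. The progesterone receptor gene pgr rose in diploids by 1.12 ± 0.19 (adjusted p = 0.005) and had a change of 0.27 ± 0.20 in triploids, with 25.0, 29.7 and 32.5 CPM in triploid EE2 and 17.7 to 29.7 CPM in triploid controls, against 65.8 to 112 CPM in diploid EE2 and 31.7 to 44.9 CPM in diploid controls. Its interaction was −0.85 (95% interval −1.45 to −0.26, adjusted p = 0.8). The estrogen receptor gene esr2a had an interaction of −0.08 (−0.47 to 0.31) and the androgen receptor gene ar one of 0.05 (−0.43 to 0.53), so differences of 2-fold lay outside both intervals. The intervals for ddx4 (−0.33 to 0.35) and sycp3 (−0.36 to 0.54) were as narrow. Of 26 meiosis genes, 0 had an interaction p under 0.05, and the list median was −0.22 in triploids and −0.25 in diploids. Amh was lower in triploids under both treatments (log2 ploidy differences of −2.04 under EE2 and −2.15 in controls), and its interaction was 0.11 (−0.72 to 0.95).

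**Figure D4:**
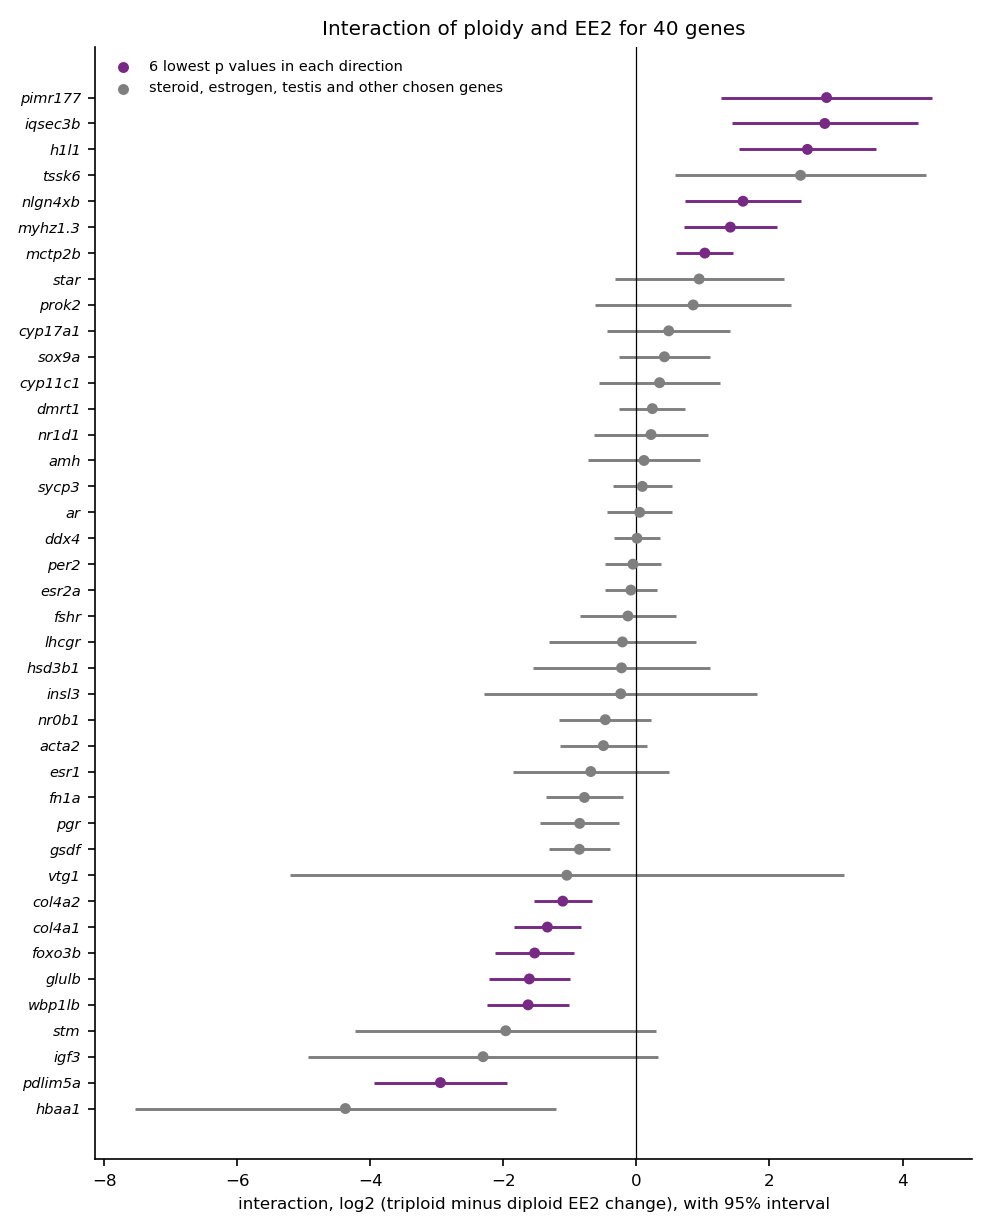
Interaction of ploidy and EE2, as log2 (triploid minus diploid change with EE2), with 95% intervals, for 40 genes. Purple marks the 12 leading genes, 6 in each direction, and grey the 28 genes chosen for their role in steroid, estrogen or testis biology or as markers. The purple intervals exclude 0, as their choice by p would give, and most grey intervals include it.

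Only 2 genes were called in triploids and not in diploids. The chromatin protein gene hmgb3a had 49.2, 35.7 and 34.8 CPM in triploid EE2 and 17.0, 23.3, 16.4 and 15.8 CPM in triploid controls, against 34.5 to 47.4 CPM in diploid EE2 and 21.4 to 37.3 CPM in diploid controls. It rose in triploids by 1.14 ± 0.20, its change in diploids was 0.52 ± 0.19, and the interaction was 0.62 (95% interval 0.04 to 1.2, adjusted p = 0.93). The gene lrrc75ba fell in triploids by 1.75 ± 0.31, its change in diploids was −1.06 ± 0.28, and the interval of its interaction, −1.56 to 0.18, included 0. Among the genes called in both ploidies, the retinoic acid degrading enzyme gene cyp26b1 rose by 2.14 ± 0.27 in triploids and 1.5 ± 0.24 in diploids, and the bicarbonate transporter gene slc4a4a fell by 1.26 ± 0.20 in triploids and 1.98 ± 0.19 in diploids (interaction 0.72, 95% interval 0.14 to 1.29, adjusted p = 0.88).

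Several list medians with an offset between ploidies moved when 1 library was left out. The 94 cytosolic ribosomal protein genes had median changes of 0.00 in triploids and −0.32 in diploids, and the 104 nuclear-encoded respiratory chain genes 0.00 in triploids and −0.38 in diploids. Without diploid control replicate 1 their median interactions were −0.17 and −0.06, in place of 0.36 and 0.39. The 13 erythrocyte genes had median changes of 0.22 in triploids and 1.68 in diploids, and the hemoglobin gene hbaa1 had 2.34 to 10.5 CPM in triploid EE2 and 6.93 to 7.69 CPM in triploid controls, against 415, 18.1, 22.5 and 23.4 CPM in diploid EE2 and 2.00 to 9.97 CPM in diploid controls. Without diploid EE2 replicate 1, at 415 CPM, the erythrocyte median interaction was −0.37, in place of −1.50. Of the 13 genes, 5 had a negative interaction at a p under 0.05 (background 3.3%) and 2 rose in diploids (background 1.94%). Without that library 4 were negative and 2 rose. For hbaa1 the interaction was −4.37, and −1.91 without that library. Exocrine pancreas and gut genes summed to 39.9 to 279 CPM in triploid EE2 and 92.7 to 378 CPM in triploid controls, against 96.8 to 6762 CPM in diploid EE2 and 98.5 to 10552 CPM in diploid controls, so their part differs widely within the diploid groups. Liver genes summed to 370 to 1596 CPM in triploid EE2 and 429 to 958 CPM in triploid controls. They summed to 443 to 1634 CPM in diploid EE2 and 307 to 2065 CPM in diploid controls. The part of blood, gut and liver RNA in the results above, those of vtg1 among them, was not tested.

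**Figure D5:**
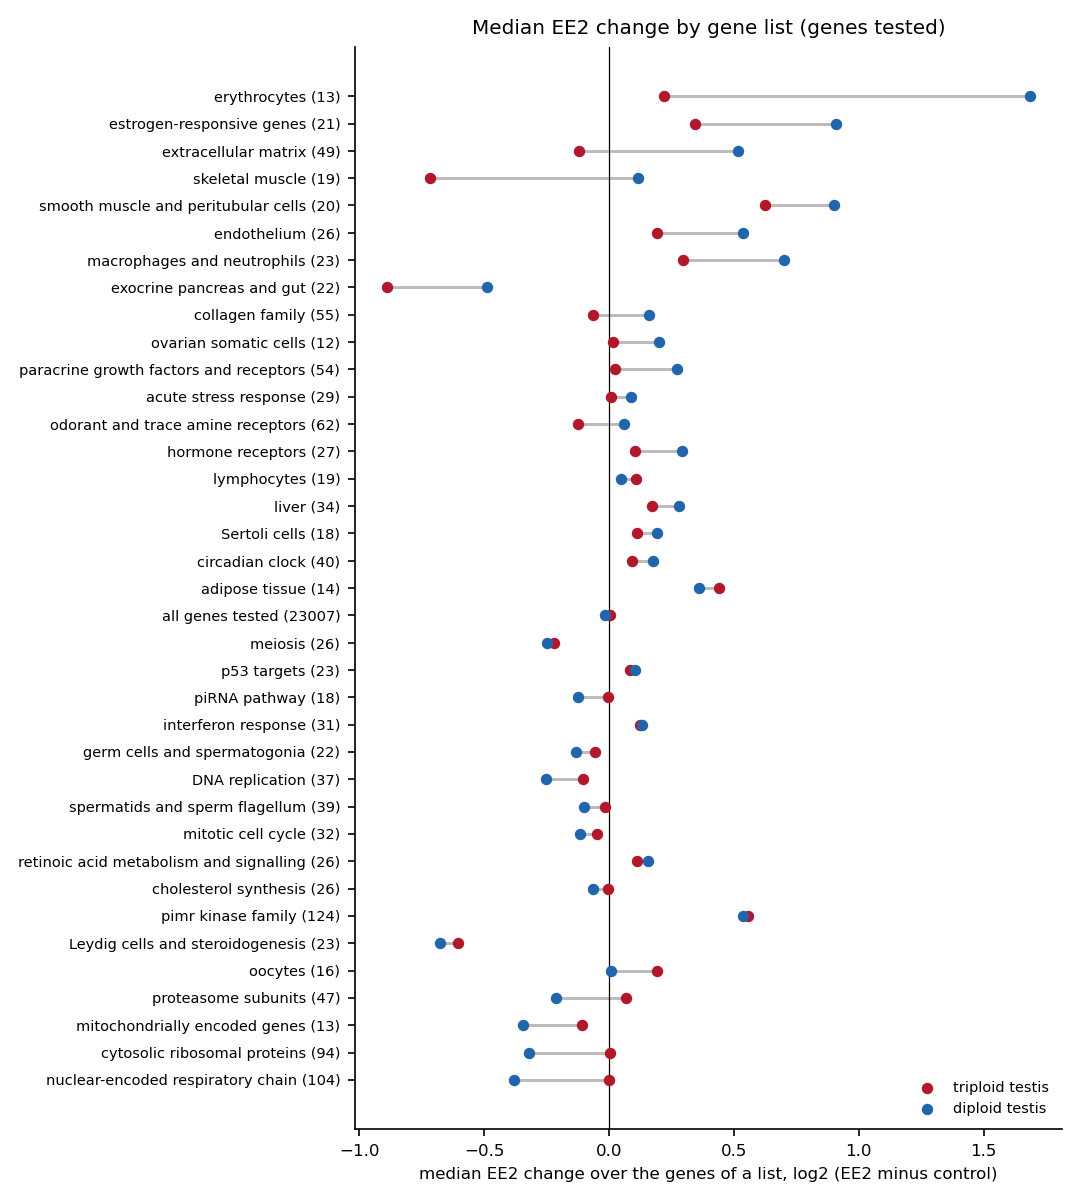
Median change with EE2, as log2 (EE2 minus control), over the tested genes of each list (number in parentheses), in triploid testis (red) and diploid testis (blue), sorted by the median interaction. The extracellular matrix list lies at −0.12 in triploids and 0.52 in diploids, the Leydig cell list at −0.60 and −0.68, and all genes tested near 0 in both. The medians of the erythrocyte list at the top and of the ribosomal protein and respiratory chain lists at the bottom shrink or change sign when 1 diploid library is left out.

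The remaining genes that DESeq2 called were of mixed function. The adrenomedullin receptor subunit gene ramp2 had 4.15, 3.05 and 3.66 CPM in triploid EE2 and 6.43 to 7.52 CPM in triploid controls, against 7.89 to 20.7 CPM in diploid EE2 and 4.29 to 8.83 CPM in diploid controls (interaction −2.01, 95% interval −2.89 to −1.13, and −1.17 with triploid EE2 replicate 2 in the fit). The kinase gene nuak1a had an interaction of −2.51 (−3.77 to −1.26), which was −1.84 without triploid control replicate 2. The Notch ligand gene jag2b had changes of −0.49 in triploids and 0.36 in diploids, and the RhoGAP gene tagapb of 0.14 in triploids and 1.96 in diploids. The interaction of tagapb was −1.83, and −1.05 with triploid EE2 replicate 2 in the fit. The genes cped1, ivns1abpb, stxbp6 and tagapb rose in diploids, by 0.80, 0.55, 1.24 and 1.96, and none of them passed the test in triploids. The gene lrrc7 had changes of −0.78 in triploids and 0.26 in diploids, of which neither passed the test.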

How the data were processed

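The deposited table held counts: the authors counted read pairs per gene over exons on the reverse strand with featureCounts 2.0.6 and the Ensembl 113 annotation of GRCz11, on STAR alignments, per the file headers (STAR version not given in the sources used here). Per the labels, libraries were strand-specific and depleted of ribosomal RNA, without poly-A selection. The deposited table also gives another value per gene, exon length in bases (unit: other), used to describe genes.

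Of 32520 genes, 23007 passed edgeR's filterByExpr and were tested in 15 libraries with edgeR 4.0.16 in R 4.3.3: TMM scaling, 1 mean per group, glmQLFit with robust estimation, quasi-likelihood F tests, Benjamini-Hochberg adjustment over all genes tested, calls at an adjusted p under 0.05. The median biological coefficient of variation was 20.4%, with 11 residual degrees of freedom. CPM values use TMM-scaled library sizes. Values of the omitted library come from a scaling of all 16. The interaction script was tested on simulated data. Alternatives included DESeq2 1.42.0 and limma-voom (limma 3.58.1).

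Named genes were those called in the interaction with no clone name and an average level of 1 or more on the log2 CPM scale. As there were 0, the rule took the 6 with the lowest p in each direction. It added 30 chosen genes, of which 28 were tested. Under those symbols, f13a1a.1 and cyp11a2 had no match. Genes from DESeq2's calls, the calls in other alternative settings, the calls in both or 1 ploidy, and the chromosome 7 stretch fall outside the rule. They were chosen after their values were seen. Members of lists were read from 30 lists and 6 name patterns. The members, lists and tests were chosen with earlier results of these data known, and no list was given a test.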

Additional observations from a re-analysis of the deposited data

Results flagged for a closer look

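In 12 groups of 4 libraries a single library stood far from the other 3 by Dixon's test, of 120 groups examined over 40 genes. Chance flags about 1 in 20 groups. Among genes with a leading interaction, h1l1 had 166 CPM in triploid control replicate 2, with 69.4 to 81.4 CPM in the other triploid controls, and mctp2b had 94.2 CPM in triploid control replicate 3, with 60.2 to 65.1 CPM in the others. The gene wbp1lb had 44.6 CPM in triploid control replicate 2 (others 31.9 to 33.8 CPM) and 40.3 CPM in diploid control replicate 4 (others 23.6 to 26.2 CPM). In that same library foxo3b had 37.1 CPM (others 23.2 to 23.5 CPM) and fn1a had 25.8 CPM (others 18.8 to 19.8 CPM). In diploid EE2 replicate 3, vtg1 had 1222 CPM (others 90.1 to 137 CPM) and the gonadotropin receptor gene lhcgr 18.9 CPM (others 4.88 to 7.22 CPM). The gene stm, which encodes an otolith matrix protein, had 17.9 CPM in diploid control replicate 3 (others 1.18 to 3.16 CPM). The androgen receptor gene ar had 15.1 CPM in diploid control replicate 1 (others 22.8 to 24.4 CPM). The clock gene per2 had 57.1 CPM in triploid control replicate 4 (others 45.3 to 46.4 CPM), and hbaa1 had 415 CPM in diploid EE2 replicate 1 (others 18.1 to 23.4 CPM).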

How the results depend on the processing

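Every p in these designs rests on 3 or 4 libraries per group and a median standard error of 0.32 for the interaction, which limits what can be told apart. DESeq2 called 43 interactions, 11 positive and 32 negative, 100 genes in triploids (63 higher and 37 lower) and 1207 in diploids (889 higher and 318 lower), and limma-voom called 10 in triploids, 3 higher, with 70.0% lower against 41.7% by edgeR. With triploid EE2 replicate 2 included, counts were 38 in triploids (22 higher and 16 lower) and 257 in diploids (196 higher and 61 lower). Without both diploid replicates 1, 1 negative interaction (zgc:162962) and 25 genes higher in triploids were called. Leaving out 1 library gave 0 to 5 interactions (0 to 1 positive and 0 to 5 negative), 2 to 35 genes in triploids (2 to 24 higher and 0 to 11 lower) and 254 to 656 in diploids (212 to 565 higher and 42 to 151 lower). The causes were not tested.

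Same-numbered libraries had correlations of their deviations from −0.17 to 0.14. Differently numbered libraries were not set beside them, so whether the numbers stand for a shared batch was not settled. The fit with a replicate block called 0 interactions, 4 genes in triploids (2 higher and 2 lower) and 407 in diploids.

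Of 2328 pairs of a named gene and a setting, 2226 kept direction and call, 52 gained a call and 50 changed sign, in 21 genes. Every gene called in an alternative setting was named for that call. The 52 therefore follow from the choice, and these counts are no rate of stability over all genes. With triploid EE2 replicate 2 included the interaction changed sign for lhcgr (0.13), fshr (0.078), esr2a (0.076), nr0b1 (0.057), ddx4 (−0.021), sycp3 (−0.10), fn1a (1.39), mmp14b (0.58), si:dkey-97i18.5 (2.38) and F13A1_ENSDARG00000094832 (0.24). Without both diploid replicates 1 it did for per2 (0.030) and tbata (−0.15), and by limma-voom for tbata (−0.079). Leaving out 1 library turned the sign for vtg1 (−2.63 to 0.80), hsd3b1 (−0.97 to 0.12), insl3 (−0.83 to 0.38), lhcgr (−0.41 to 0.43), fshr (−0.31 to 0.027), amh (−0.15 to 0.32), ar (−0.026 to 0.18), esr2a (−0.21 to 0.017), ddx4 (−0.048 to 0.087), sycp3 (−0.023 to 0.23), nr1d1 (−0.20 to 0.53), per2 (−0.14 to 0.052), tbata (−0.075 to 0.74), cald1b (−0.64 to 0.0073), hspa8b (−0.049 to 0.15), si:dkeyp-77h1.4 (−0.37 to 0.14) and F13A1_ENSDARG00000094832 (−1.21 to 1.88). Of 864 pairs of a list median and a setting, 829 moved by less than the spread between libraries and 35 by more.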

Other observations

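Lists of germ cell development had medians close together in the 2 ploidies. Of 39 spermatid and sperm flagellum genes, 1 had a positive and 0 a negative interaction at an unadjusted p under 0.05 (background 2.02% and 3.3%). Their median changes were −0.02 in triploids and −0.10 in diploids. Of 22 germ cell and spermatogonia genes, 2 had a negative and 0 a positive interaction at that p. The medians were −0.06 in triploids and −0.13 in diploids. Among 37 DNA replication genes 1 had a positive and 0 a negative interaction at that p, with medians of −0.11 in triploids and −0.25 in diploids. The piRNA pathway, which silences transposons in germ cells, had 0 of 18 genes at that p in either direction.

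Among immune cells, 23 macrophage and neutrophil genes had median changes of 0.30 in triploids and 0.70 in diploids, and their median interaction was −0.36 in the 15 libraries and 1.07 with triploid EE2 replicate 2 included. Of 23 p53 target genes, 4 had a negative and 0 a positive interaction at a p under 0.05 (background 3.3% and 2.02%). The list as a whole lay on neither side, with 11 negative and 12 positive interactions and a median of 0.03. One of the 4, the kinase gene plk3, rose in diploids by 1.14 and had a change of 0.34 in triploids. Of 26 retinoic acid genes, 1 had a positive interaction at that p, and cyp26b1 was the only member that EE2 changed in either ploidy.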
